A study of Mus musculus with 3 samples.

Results

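The regions described here were the pseudogenes of the GENCODE M1 annotation of mm9, that is, genes whose annotated type contains the word pseudogene. Of 5209 annotated pseudogenes, 4063 lay on autosomes, and 141 of those were set aside because they overlapped an exon of a protein-coding gene. The remaining 3922 pseudogenes, of 37310 annotated genes in all and 34653 autosomal ones, were followed in full. Of these, 2989 had a single annotated exon and 933 had several. By annotated type 2837 were processed pseudogenes, 722 were unprocessed and 363 were of another or unspecified pseudogene type. The median pseudogene spanned 635.5 bp and held 9 CpGs, and 122 held none. By sequence, 3690 matched a transcript of an annotated protein-coding gene, so the label fitted most of the set, although a few members, such as Frat1 and Lingo2, carry the symbol of a gene known to encode a protein.

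A processed pseudogene is a retrocopy, formed when an mRNA is reverse transcribed and inserted elsewhere in the genome, so it usually has no introns and arrives without the promoter of its parent gene. An unprocessed pseudogene arises by duplication of a stretch of genomic DNA and keeps the exons and introns of the parent. Most CpGs in mammalian DNA carry 5-methylcytosine (5mC), which deaminates to thymine more readily than cytosine does, and dense CpG islands at active promoters are usually free of it. Because pseudogenes resemble their parent genes, short reads from them are also harder to place.

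The DNA came from E14 mouse embryonic stem cells, a male line grown without differentiation in medium with LIF and the inhibitors PD0325901 and CHIR99021. One preparation of genomic DNA was measured by 3 methods: TAPSβ, which reads 5mC; CAPS, which reads 5-hydroxymethylcytosine (5hmC); and PS, which reads 5-formylcytosine and 5-carboxylcytosine (5fC and 5caC). In each method the modified base is read as thymine, and the level is the share of reads with a thymine at a CpG cytosine. Per the paper's spike-in controls, TAPSβ and CAPS also convert 5fC and 5caC, so their levels include these bases. Each method had 1 library and no replicate, so every interval below is a 95% interval for counting error alone, treats reads as independent molecules, and no value compares conditions.

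The libraries held 511365019 base calls at CpG cytosines in TAPSβ, 377288829 in CAPS and 383591531 in PS, with a median depth of 13, 9 and 9 reads per listed cytosine. Over all listed cytosines the levels were 57.5% in TAPSβ, 3.14% in CAPS and 0.246% in PS. The pseudogene bodies held 150545 reference CpG cytosines and received 1359050, 1061231 and 1132505 base calls in the 3 libraries. They were compared with flanks 1 to 3 kb from either end, which held 244680 reference cytosines.

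Copy and parent are shown side by side in 4 aligned stretches, each chosen around a pseudogene at one end of the measured range: in 2 the copy was weakly methylated like its parent, and in 2 it was methylated where the parent was not. Each pair is printed 5′ to 3′ on the strand of the gene, with every CpG in capitals. The pseudogene coordinates are those of mm9, and the source stretch is coding sequence of the named gene in the same assembly.

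The first pair is Gm10169 (chr7:30750422-30750571, minus strand), a copy of Mif, which encodes macrophage migration inhibitory factor. It is shown as a dense copy that was almost unmethylated. Reads of a copy and a gene this alike can be exchanged, and the part of this in the level was not tested.
Gm10169: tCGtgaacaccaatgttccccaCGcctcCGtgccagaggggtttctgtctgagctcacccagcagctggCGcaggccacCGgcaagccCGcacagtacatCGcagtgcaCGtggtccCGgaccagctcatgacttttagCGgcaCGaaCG
Mif: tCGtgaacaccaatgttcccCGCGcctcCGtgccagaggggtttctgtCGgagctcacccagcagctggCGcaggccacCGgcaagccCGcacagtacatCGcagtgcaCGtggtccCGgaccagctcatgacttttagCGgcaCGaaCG
The sequences were identical at 148 of 150 bases and 12 of the 14 CpGs of Mif were kept. The TAPSβ level over the CpGs of the stretch was 2.40% in the copy (95% interval 1.25 to 4.15%, 500 base calls) and 0% in Mif (up to 0.744%, 494 base calls).

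The second pair is Gm7862 (chr12:77253495-77253614, minus strand), a copy of Hmgn1, a nucleosome-binding protein, lying within the gene Esr2. It is shown as a second weakly methylated copy that sits among methylated flanks.
Gm7862: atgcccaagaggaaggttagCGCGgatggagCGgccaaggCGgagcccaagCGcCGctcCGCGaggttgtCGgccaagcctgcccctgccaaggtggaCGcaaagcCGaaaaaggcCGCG
Hmgn1: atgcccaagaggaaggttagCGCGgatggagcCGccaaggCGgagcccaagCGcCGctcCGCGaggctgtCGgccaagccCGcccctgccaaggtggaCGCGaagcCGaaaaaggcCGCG
The sequences agreed at 116 of 120 bases. Of 15 CpGs in Hmgn1, 12 were kept, and 1 was gained. The TAPSβ level was 3.79% in the copy (2.298 to 5.859%) and 0% in Hmgn1 (up to 0.925%).

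The third pair is Gm12892 (chr4:121756265-121756414, plus strand), a copy of Ckb, brain creatine kinase. It is shown as a densely methylated copy of a nearly unmethylated gene.
Gm12892: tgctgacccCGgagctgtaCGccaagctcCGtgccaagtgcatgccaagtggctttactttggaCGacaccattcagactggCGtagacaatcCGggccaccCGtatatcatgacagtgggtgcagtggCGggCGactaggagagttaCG
Ckb: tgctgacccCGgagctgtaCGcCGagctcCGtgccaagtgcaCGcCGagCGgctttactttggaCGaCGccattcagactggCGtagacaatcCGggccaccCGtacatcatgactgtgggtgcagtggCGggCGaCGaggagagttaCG
The sequences agreed at 142 of 150 bases. Of the 16 CpGs of Ckb, 10 were kept, and 5 of the 6 that were lost had become TG or CA. The TAPSβ level was 82.7% in the copy (72.2 to 90.4%, 75 base calls) and 0.645% in Ckb (0.133 to 1.87%, 465 base calls).

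The last pair is Gm15779 (chr6:148952530-148952679, plus strand), a copy of the ribosomal protein gene Rpl27. It is shown because Gm15779 had the highest CAPS level of the pseudogenes that could be ranked.
Gm15779: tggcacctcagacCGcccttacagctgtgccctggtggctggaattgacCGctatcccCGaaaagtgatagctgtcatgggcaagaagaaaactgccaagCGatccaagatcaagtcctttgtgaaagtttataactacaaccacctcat
Rpl27: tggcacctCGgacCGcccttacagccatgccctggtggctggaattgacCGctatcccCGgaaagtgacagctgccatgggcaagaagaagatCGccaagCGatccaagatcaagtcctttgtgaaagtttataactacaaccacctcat
The sequences agreed at 141 of 150 bases and 4 of 6 CpGs were kept. The TAPSβ level was 49.6% in the copy (40.3 to 58.9%) and 0.962% in Rpl27 (0.117 to 3.43%), and the CAPS level was 11.8% (5.22 to 21.9%, 68 base calls) against 2.56% (0.703 to 6.43%, 156 base calls).

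The pooled levels of the pseudogenes and of the DNA around them lay close together. The pooled TAPSβ level was 57.8% in the bodies and 58.0% in the flanks, a difference of -0.151 percentage points (-0.252 to -0.0512). The CAPS level was 3.35% in the bodies and 3.24% in the flanks, a ratio of 1.03 (1.02 to 1.05). The PS level was 0.535% against 0.415%, a ratio of 1.29 (1.25 to 1.33). These PS levels were not corrected for background (a false-positive rate of 0.0027 as a fraction of reads), and without the cytosines of highest PS level described further on they were 0.259% and 0.220%, beside 0.246% over the whole library. The pooled PS ratio did not describe the typical pseudogene: of 2577 tested, 830 had a higher PS level than their flanks and 1118 a lower one, the median body had no modified PS read, and with annotated exons alone the ratio was 1.02. The pooled TAPSβ and CAPS differences changed size and sign with the way the regions were drawn or summed. The TAPSβ difference was -4.61 points with the content of the flanks restricted and -2.49 points with annotated exons alone. With flanks at 0 to 1 kb the CAPS ratio was 0.993, with an interval (0.979 to 1.01) that included 1. The median pseudogene, which gives every member equal weight, had a TAPSβ level of 68.8% (quartiles 58.7 and 75.8%) beside a flank median of 66.7%. Of the 3174 pseudogenes with enough reads to be compared in this way, 57.1% had a higher TAPSβ level than their own flanks.

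The comparison with the flanks differed with the place of the pseudogene. Of the 3922, 1111 lay within a protein-coding gene, 443 within 5 kb of one and 2368 farther away. Bodies within 5 kb of a gene had a pooled TAPSβ level of 50.8% and their flanks 40.8%, so the body was higher by 9.96 points (9.70 to 10.2). Bodies farther away had 58.6% against 62.9% in their flanks, a difference of -4.35 points (-4.48 to -4.22). Inside genes the levels were 59.8% and 59.5%. The change of sign was a matter of the pooled reads, as the median difference over pseudogenes was above 0 in all 3 places, 1.89 points farther away, 2.38 inside genes and 4.23 within 5 kb.

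Single pseudogenes departed from their flanks in both directions. In a two-sided Fisher exact test of the reads of body and flanks, adjusted by Benjamini-Hochberg over all autosomal genes tested, 879 of 2590 pseudogenes (33.9%) were higher in TAPSβ and 646 (24.9%) were lower at an adjusted p under 0.05. Over all 27196 autosomal genes tested the shares were 28.4% higher and 49.3% lower. Protein-coding genes were mostly lower than their flanks, with 53.0% of 20293 called lower and 27.3% called higher. The share called also depends on the number of base calls, which was not matched between pseudogenes and other genes. Called or not, the body was above its flanks in 57.0% of the pseudogenes tested and 36.9% of the protein-coding genes. With flanks at 0 to 1 kb, 597 of 2454 pseudogenes were higher and 583 lower, so the lean towards higher calls depended on the flanks. No share of all genes is given for these flanks. The test sets 2 stretches of DNA in 1 library against each other and has no replicate behind it.

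In CAPS 238 of 2567 pseudogenes (9.27%) were higher and 95 (3.70%) lower, beside 8.63% and 14.1% of all genes. Called or not, the body was above its flanks in CAPS in 53.0% of the pseudogenes tested and 45.4% of the protein-coding genes. With flanks at 0 to 1 kb the CAPS calls were 119 higher and 76 lower of 2434, with no share of all genes given for these flanks. In PS 35 of 2577 (1.36%) were higher and 24 (0.931%) lower, beside 0.427% and 0.776% of all genes. Most pseudogenes passed neither way in these 2 methods, 2234 in CAPS and 2518 in PS. The same was true of protein-coding genes, with 15414 of 20266 not called in CAPS and 20052 of 20286 in PS.

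Counted cytosine by cytosine, 1905 of 98030 cytosines in pseudogenes with at least 5 reads (1.94%) passed a one-sided exact binomial test for 5hmC against a false-positive rate of 0.0072, adjusted over all listed cytosines, beside 1.90% in the flanks and 1.64% of all tested cytosines. For 5fC and 5caC, with a rate of 0.0027, 458 of 101999 (0.449%) passed, beside 0.254% in the flanks and 0.0791% of all tested cytosines. Without cytosines read as thymine in at least 20% of 5 or more PS reads, 37 of 101486 passed (0.0365%), beside 0.00609% of all. That filter uses the same PS counts as the test, so the fall from 458 to 37 was in part fixed in advance.

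Single-exon pseudogenes had a higher pooled level of both 5mC and 5hmC than multi-exon ones. The TAPSβ level was 59.3% against 56.3%, a difference of 2.96 points (2.79 to 3.12). The CAPS level was 3.63% against 3.06%, a ratio of 1.19 (1.16 to 1.21). Among pseudogenes with 1 to 3 CpGs per 100 bp the CAPS ratio was 1.02, with an interval (0.989 to 1.05) that included 1, and the TAPSβ difference was 8.10 points (7.86 to 8.33). In PS the order was the other way, 0.418% against 0.662%, although the annotated exons of the multi-exon pseudogenes had 0.443%. Against their own flanks, single-exon bodies were 1.01 points higher in TAPSβ (0.879 to 1.145) and 1.11 times as high in CAPS (1.09 to 1.13), whereas the intervals for multi-exon bodies included no difference in TAPSβ (-0.0601 points, -0.230 to 0.110) and a ratio of 1 in CAPS (0.979, 0.958 to 1.00).

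The multi-exon level hid a contrast between exons and introns. The annotated exons of multi-exon pseudogenes had a TAPSβ level of 45.8% (45.6 to 46.0%) and the introns 63.1% (62.9 to 63.2%). With exons alone the single-exon pseudogenes were higher by 13.5 points. By annotated type, the bodies of unprocessed pseudogenes had 62.8%, those of processed pseudogenes 59.6%, and those of the other types 38.3% in pooled reads. The median pseudogene gave another order, with 69.7% for processed, 67.6% for other types and 66.2% for unprocessed ones, so the pooled level of the other types lay far below that of their typical member.

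Along the body, the lowest TAPSβ levels lay at the 5′ end. In multi-exon pseudogenes the lowest level was 34.8% (34.3 to 35.3%), in the 100 bp just upstream of the annotated start, and the level was 38.5% in the first of 20 bins of the body and 63.1% in the last. In single-exon pseudogenes the 5′ dip was shallower, with 51.3% (50.9 to 51.8%) in the second bin of the body, and the level was 64.7% in the last. The sequence just upstream of a single-exon pseudogene was low as well, at 53.3% (53.0 to 53.6%).

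**Figure D1:**
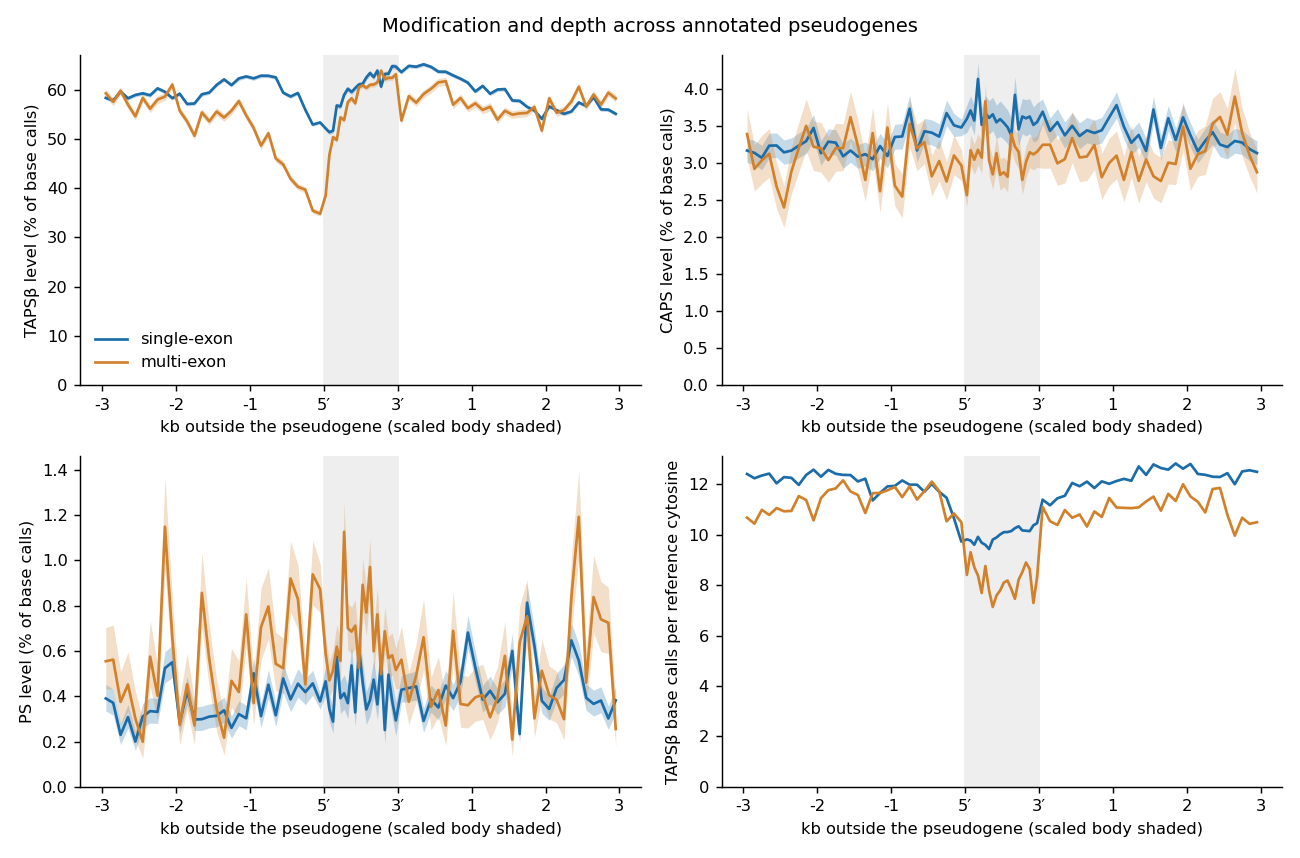
Levels along single-exon and multi-exon pseudogenes and 3 kb on either side, with the body scaled to 20 bins and the flanks in bins of 100 bp, all cytosines pooled per bin. The multi-exon line dips to 34.8% in TAPSβ just before the annotated start, and the single-exon line reaches its lowest level, 51.3%, within the first bins of the body.

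The TAPSβ level was lowest in pseudogenes dense in CpGs. The pooled TAPSβ level of the bodies was 65.6% in pseudogenes with under 1 CpG per 100 bp, 66.0% at 1 to 2, 55.8% at 2 to 3, 46.0% at 3 to 5 and 12.5% (12.3 to 12.8%) at 5 or more. The flanks of the 5 classes lay between 54.1 and 59.7%, so the order belonged to the bodies. The CAPS level went up over the first 4 classes, from 2.73 to 3.33, 3.81 and 4.22%, and was 2.89% in the densest class.

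By the number of CpGs in the whole pseudogene, the TAPSβ level was 66.4% with 1 to 4 CpGs, 66.4% with 5 to 9, 63.9% with 10 to 19, 53.9% with 20 to 49 and 52.8% with 50 or more. These levels spanned a narrower range than those of the density classes.

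**Figure D2:**
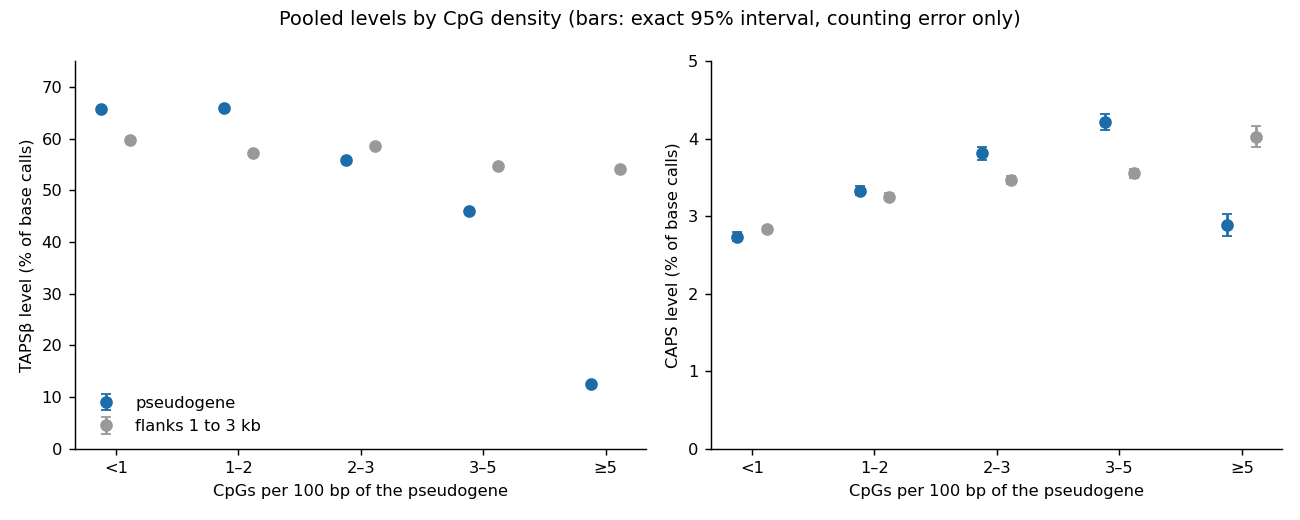
Pooled levels of bodies and flanks by CpGs per 100 bp of the body, with 95% intervals for counting error. The TAPSβ level of the bodies goes from 65.6% in the sparsest class to 12.5% in the densest, and the flanks stay between 54.1 and 59.7%.

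The densest pseudogenes were a mixture of methylated and unmethylated members. Of the 92 measured pseudogenes with 5 or more CpGs per 100 bp, 46 had a TAPSβ level under 20%, 31 lay between 20 and 60% and 15 were at 60% or more. The share under 20% was 0.189% in the sparsest class, and 1.42, 3.40 and 13.8% in the classes between. In the densest class exon count went with the level: 17 of 19 multi-exon pseudogenes were under 20%, with a median of 1.11%, and 29 of 73 single-exon ones were, with a median of 27.7%. The single-exon members of this class had a median CAPS level of 3.84% and the multi-exon members one of 0.844%. The second is near the CAPS false-positive rate, 0.0072 as a fraction of reads.

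**Figure D3:**
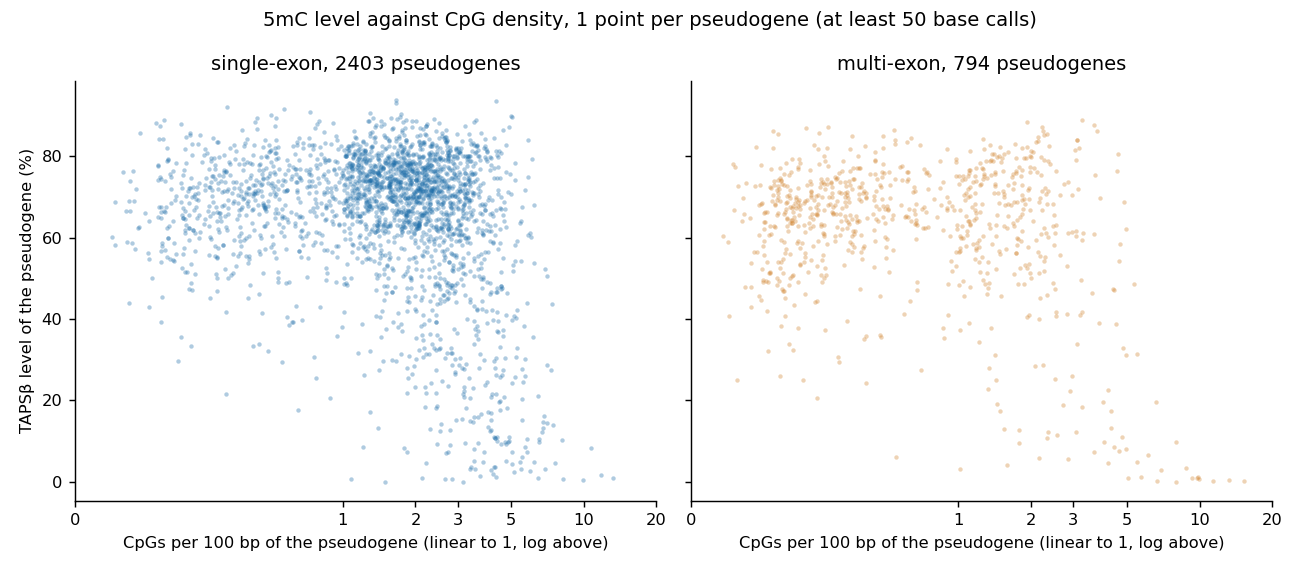
TAPSβ level of each pseudogene body against its CpGs per 100 bp, single-exon and multi-exon members shown apart. Most points lie between 60 and 80%, and at 5 or more CpGs per 100 bp 46 of 92 lie under 20%.

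Among all members the levels gathered in 1 broad peak with a small tail near 0. Of the 3174 compared, 1944 (61.2%) lay from 60 to 80%, 381 from 80 to 100%, and 78 (2.46%) under 10%. They made up 1.97% of the processed pseudogenes (47 of 2383), 9.23% of those of other type (25 of 271) and 1.15% of the unprocessed ones (6 of 520). They also made up 10.8% of those without a match to a coding transcript (19 of 176), beside 1.15 to 4.63% in the identity classes. In 49 of the 78 the flanks were at 50% or more, and 58 had no start of a protein-coding gene within 5 kb, which was true of 2775 of the 3174. Of the 44 pseudogenes with such a start within 1 kb, 9 were under 10%.

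Among pseudogenes with enough reads for ranking, the 8 lowest levels lay under 1%. Lingo2, annotated within the gene of the same symbol, which encodes a neuronal membrane protein, had no modified read among 664 (up to 0.554%) beside a flank level of 35.8%. Frat1, an inhibitor of GSK3 and hence an activator of Wnt signalling, had a TAPSβ level of 0.322% (0.155 to 0.592%) over 85 CpGs, and its flanks had 45.0%. Hist2h3c2, of the histone H3 family, had 0.598% (0.163 to 1.52%) beside 58.6%, at the 46 of its 167 reference cytosines that were listed. These 3 have a density of 7.99, 13.2 and 8.21 CpGs per 100 bp.

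The other 5 carry only clone names. Gm9987, whose start lies 217 bp from that of Sh3rf3, had 0.139% beside 55.8% in the flanks. Gm13889 had 0.174% beside 39.5%, and 4930527J03Rik had 0.223% beside 73.6%, the widest gap of any ranked pseudogene. In Gm10704, which like Lingo2 had no modified read, and in Gm11336 (0.322%) the flanks were low too, at 2.97 and 9.10%. All 8 of these had CAPS and PS levels under 1%, not corrected for false-positive rates of 0.0072 of reads in CAPS and 0.0027 in PS.

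The next 3 pseudogenes by their distance below the flanks were retrocopies. Gm10169, the Mif copy printed above, had 3.02% (2.07 to 4.23%) over its whole body beside 75.2% in the flanks, with the limit on read placement given there. Its printed stretch had 500 base calls in TAPSβ, 265 in CAPS and 337 in PS. Rpl36-ps8, a copy of a gene of the large ribosomal subunit, had 4.49% (3.09 to 6.29%) beside 75.7%. Gm7862, the Hmgn1 copy, had 7.25% (5.43 to 9.44%) beside 79.0%, and a CAPS level of 6.01% (3.54 to 9.44%) beside 2.04%. Its CAPS level was higher than its flanks at an adjusted p of 0.013 in the Fisher exact test over all autosomal genes. At Gm10169 and Rpl36-ps8 the CAPS levels, 1.93 and 1.81%, were not called against the flanks.

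At the other end stood copies within or beside unmethylated DNA. Gm11870, a copy of the tubulin gene Tuba1a inside Osgin2, had 79.7% (74.6 to 84.1%) beside 10.9% in its flanks. Gm13321, a copy of Rpl32, had 69.2% beside 4.24%, Gm12712, a copy of Rpl7a, had 72.4% beside 10.6%, and Gm12093, which resembles Apex2, a DNA repair nuclease, had 75.7% beside 15.9%. The starts of protein-coding genes lay 1470 bp from Gm11870, 2156 bp from Gm13321 and 3112 bp from Gm12093, and 22024 bp from Gm12712.

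Among the highest levels were those of Gm12892, the Ckb copy, with 89.9% (87.1 to 92.2%), Gm11295, a copy of the fatty acid elongase gene Elovl6, with 89.0%, and Gm2343, which resembles Gpbp1l1, with 88.9%. Their flanks were at 60, 70.7 and 77.6%. At Gm12892 and Gm11295 the depth was lower in TAPSβ than in the other libraries. At Gm12892 it was 4.97 reads per listed cytosine in TAPSβ, 6.87 in CAPS and 7.95 in PS, and at Gm11295 it was 7.75, 10.6 and 9.39.

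The highest CAPS levels were found in pseudogenes of low or middle TAPSβ level. Gm15779, the Rpl27 copy inside Dennd5b, had a CAPS level of 13.9% (9.10 to 19.9%) beside 4.0% in the flanks, and a TAPSβ level of 39.3%. Gm12899, which resembles Ostf1, had 12.1% (8.38 to 16.7%) beside 5.26%, with a TAPSβ level of 12.6%, so there the 2 marks were read at similar levels. Gm7805, a copy of the mitochondrial ribosomal protein gene Mrpl20, had 11.9% (7.50 to 17.6%) beside 0.612%. The next were 1700022A21Rik with 11.2%, and Gm13092 and Gm2991, copies of the splicing factor genes Snrpf and Snrpc, with 10.9% each.

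The same relation held over the whole set as a description. The CAPS level pooled over bodies was 1.99% where the TAPSβ level was under 10%, 4.28% at 10 to 20%, 5.06% (4.91 to 5.22%) at 20 to 40%, 4.77% at 40 to 60%, 3.02% at 60 to 80% and 2.04% at 80% or more. The flanks, classed by their own TAPSβ level, ran 1.77, 2.42, 4.24, 4.42, 2.92 and 1.79%. Pseudogene bodies were above flanks of the same TAPSβ class in every class, most at 10 to 20%, where 60 bodies had 4.28% (4.05 to 4.52%) and 57 flanks 2.42% (2.32 to 2.52%). Under 10% the intervals overlapped (1.87 to 2.11% and 1.66 to 1.88%). The levels were not corrected for background. Without the cytosines of highest PS level described below, the CAPS level over all classes was 3.11% in bodies and 3.07% in flanks.

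The copies of known parents made it possible to see which CpGs had been kept. Of the single-exon pseudogenes, 2678 aligned to a transcript of 1 of 1083 coding genes with at least 3 exons, which leaves out coding entries that are themselves single-exon copies. Of 45083 CpGs in the aligned transcripts, 22534 (49.98%) were still CpGs in the copy, 16485 (36.6%) had become TG or CA, the sequences that deamination of a methylated CpG leaves, and 6064 (13.5%) had another sequence.

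The share kept rose with the identity of copy and transcript. Both are counted in the same alignment, so a rise was fixed in advance, and GpC is given beside CpG for that reason. Copies under 80% identical kept 9.16% of the CpGs, copies at 80 to 90% kept 28.2%, at 90 to 95% 50.04%, at 95 to 98% 72.9% and at 98% or more 92.4%. GpC, the same bases in the other order, was kept at 56.3, 74.7, 84.8, 93.1 and 97.9% of its positions in these classes. Over all classes 36.6% of CpGs had become TG or CA, and 10.9% of GpCs had become GT or AC, which take the same base changes. CpGs of the copy that are absent from the transcript numbered 6920, and 4028 of them stood where the transcript has TG or CA.

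Kept CpGs had a higher TAPSβ level in the less alike copies. The TAPSβ level at kept CpGs was 63.5% (62.8 to 64.3%) in copies under 80% identical, 62.3% at 80 to 90%, 61.0% at 90 to 95%, 54.5% at 95 to 98% and 53.2% (52.9 to 53.5%) at 98% or more. The CAPS level was 3.39, 3.297, 3.72, 3.75 and 4.03% in the same order. CpGs gained by the copy were mostly in less alike copies, and within a class their level was 63.0% under 80% identity and 62.7% at 80 to 90%, near that of kept ones, and 63.9, 59.5 and 57.6% in the other 3 classes.

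At the same CpG, the copy was in general more methylated than the parent gene. Of 22429 CpGs with a position in both, those of genes on the sex chromosomes were left out. Over the remaining 21696, in 2154 copies of 904 genes, the TAPSβ level was 57.2% (57.1 to 57.4%) in the copies and 24.97% (24.9 to 25.1%) in the genes. The gap was wider at CpGs of the gene within 2000 bp of a start of transcription of a protein-coding gene than beyond. Under 500 bp from such a start the copies had 42.3% and the genes 3.83%, at 500 to 2000 bp the copies had 58.6% and the genes 8.02%, and beyond 2000 bp the copies had 63.5% and the genes 47.9%. Each CpG of a gene counts once for every copy of it, so copies of 1 gene share their source value.

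Taken copy by copy, with at least 20 base calls on either side, 1646 of 1933 copies (85.2%) had the higher TAPSβ level, and the median difference was 40.3 points. Under 500 bp from a start 771 of 818 were higher, and beyond 2000 bp 964 of 1323 were. In CAPS the order depended on that distance. Under 500 bp the copies had 3.79% (3.66 to 3.93%) and the genes 1.20% (1.13 to 1.27%), and beyond 2000 bp the copies had 3.62% (3.53 to 3.71%) and the genes 4.24% (4.15 to 4.32%). Beyond 2000 bp 457 of 1193 copies were above their gene in CAPS and 688 were below.

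Reads of a copy and its gene can be exchanged where the sequences are alike, so the same comparison is given for the least alike copies. In the 232 copies under 80% identical, which shared 539 CpGs with their genes, the TAPSβ level was 63.5% (62.7 to 64.3%) in the copies and 23.0% (22.3 to 23.6%) in the genes. At 98% or more it was 52.8% in the copies and 25.4% in the genes, so the gap was larger in the less alike copies.

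**Figure D4:**
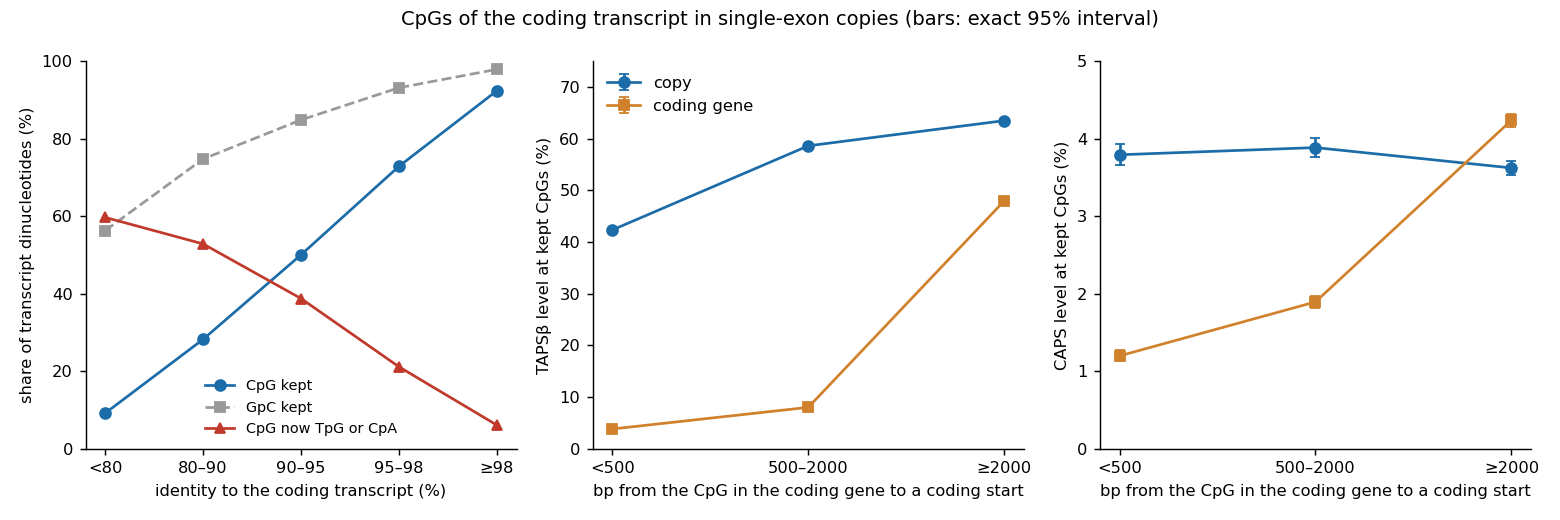
CpGs of the source transcript kept in single-exon copies by identity, and TAPSβ and CAPS levels at the same CpGs in copy and source gene by distance of the source CpG from a coding start. Kept CpGs go from 9.16% in copies under 80% identical to 92.4% at 98% or more, and the TAPSβ level of the genes goes from 3.83% near a start to 47.9% beyond 2000 bp while that of the copies goes from 42.3 to 63.5%.

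The families are described by counts, to be read against the 33.9% called higher and 24.9% called lower in TAPSβ of all pseudogenes tested, and the 28.4% and 49.3% of all autosomal genes. Each pseudogene stands in a single family, by its symbol first and by its best match only where the symbol named no family. Copies of ribosomal protein genes were the largest group. The 775 placed there by best match had a median TAPSβ level of 70.7% over the 680 measured and a pooled CAPS level of 3.84%. Of 542 tested, 211 were higher than their flanks in TAPSβ and 108 lower, shares near those of all pseudogenes. Among the 775, 17 had a level under 20%. The 86 with an Rpl or Rps symbol ending in ps are not among the 775. They had a median TAPSβ level of 68.3% over the 78 measured and a pooled CAPS level of 4.16% (3.89 to 4.45%). Of 75 tested, 31 were higher and 22 lower, beside 33.9% and 24.9%. Their median identity to a coding transcript was 97.1%, against 89.9% in the 775. In them the median density was 2.61 CpGs per 100 bp, above the 1.33 of all pseudogenes.

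Copies of genes of glycolysis were mostly methylated. Of the 116, 101 were measured, with a median TAPSβ level of 74.3% (range 42.1 to 89.1%), 40 of 85 tested were higher than their flanks and 6 lower, beside 33.9% and 24.9% of all pseudogenes, and none was under 20%. Their pooled CAPS level was 2.48%. Copies that match histone genes had a median of 46.5% over 28 measured of 31, 7 of 26 tested higher and 16 lower, beside 28.4% and 49.3% of all genes and 33.9% and 24.9% of all pseudogenes, and 6 under 20%. Hist3h2bb-ps, of the histone H2B family, had 0.957% (0.414 to 1.88%) beside 41.4% in the flanks.

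Pseudogenes of sensory receptors were mostly unprocessed members of gene clusters with few CpGs. The olfactory receptor pseudogenes had a median TAPSβ level of 67.5% over the 108 measured of 130, a pooled CAPS level of 2.00% and 5 CpGs at the median. The vomeronasal receptor pseudogenes had a median of 62.5% over the 65 measured of 102, a pooled CAPS level of 2.17% and a pooled PS level of 1.06% (0.937 to 1.19%). Their median PS level was 0.027% and the highest 8.97%, and in PS none of 30 tested was called higher and 2 were called lower, beside 1.36% and 0.931% of all pseudogenes and 0.427% and 0.776% of all genes. Of the major urinary protein (Mup) pseudogenes, 7 of 12 tested were higher than their flanks in TAPSβ and none was lower, beside 33.9% and 24.9% of all pseudogenes, with a median of 74.6% over the 14 measured of 21. The 5 H2 pseudogenes of the major histocompatibility complex had a median of 39.95% and a range from 4.199 to 73.2%. The pseudogenes that match zinc finger genes had a median of 63.3% over the 29 measured of 46, the 6 Serpin pseudogenes one of 67.7%, the 4 Cyp pseudogenes 68.6%, the 6 measured of 8 Hmgb and Hmgn copies 64.1% and the 2 Speer pseudogenes 73.8%. In TAPSβ 23 of 74 olfactory pseudogenes tested were higher and 6 lower, and 4 of 31 vomeronasal ones higher and 8 lower. Of the H2 ones 1 of 5 was higher and 3 lower, and of the Cyp ones 0 of 4 higher and 3 lower. Zinc finger matches had 6 of 23 higher and 7 lower, Serpin 3 of 6 and 1, Hmgb and Hmgn 1 of 5 and 2, and Speer 1 of 2 and 0. All stand beside 33.9% and 24.9% of all pseudogenes.

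Genes of pluripotency and of DNA methylation, which act in these cells, had 13 copies among the pseudogenes, and 12 had TAPSβ reads. Of the 12 found by their match alone, 11 could be tested, with 6 higher than their flanks in TAPSβ and 3 lower, beside 33.9% and 24.9% of all pseudogenes. Gm11649, a copy of Dppa5a, a marker of pluripotent cells, had a TAPSβ level of 0.840% (0.102 to 3.00%, 238 base calls) beside 24.7% in its flanks. The other copies of Dppa5a, Gm6083 and Gm5229, had 67.5 and 79.1%. Gm13259 and Gm15620, copies of Dppa3, had 61.5 and 47.2%, and Gm18833, a copy of Dppa4, had 76.1%. Gm15901, which resembles Nanog, a core pluripotency factor, had 82.1% (74.5 to 88.2%). Dnmt3l-ps1, a copy of the cofactor of the de novo methyltransferases, had 61.5% and a CAPS level of 5.81%, neither called against its flanks. Gm14490, a duplicate of the methyltransferase gene Dnmt3b with 270 CpGs, had 65.2% (64.1 to 66.3%) beside 48.97% and was called higher.

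The copies of Dppa2, another marker of pluripotent cells, differed among themselves. Gm13325 had a TAPSβ level of 52.8% beside 73.6% in the flanks and a CAPS level of 7.06% beside 2.12%, and was called lower in TAPSβ and higher in CAPS. Gm9788, 99.3% identical to Dppa2, had 41.0% and a CAPS level of 7.87% beside 7.74% in the flanks. Gm12874 had 80.0% and a CAPS level of 2.07%. Gm14058, 98.9% identical to Dppa4, had no TAPSβ read at its 21 CpGs.

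Depth was lower in pseudogenes than around them. In reads per listed cytosine the bodies had 0.885 of the flank depth in TAPSβ, 0.934 in CAPS and 0.976 in PS. Counted per cytosine of the reference, listed or not, the ratios were 0.746, 0.786 and 0.829, since 75.7% of body cytosines and 89.7% of flank cytosines were listed in TAPSβ. Reads of mapping quality under 10 had been removed by the authors. Of 1953 pseudogenes with at least 20 reference cytosines, 137 (7.01%) had no read in any library.

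Among pseudogenes with a match, those without reads were more frequent at high identity. Of pseudogenes under 80% identical to a coding transcript, 1 of 171 (0.585%) had no read in any library, and of those at 98% or more, 59 of 427 (13.8%) had none. Of those without a match, 11 of 123 (8.94%) had none. AY036118, which has no match, with 88 CpGs, Gm12818, a copy of Minpp1, with 70, and Gm12612 and Gm12620, both copies of the poly(A)-binding protein gene Pabpc4, with 66 and 64, were the 4 with the most CpGs among 77 at a depth of 0 beside flanks with reads. No level exists for them. At the other end Gm10294, a copy of Rpl17, had 48.1, 35.6 and 151 times the depth, per reference cytosine in TAPSβ, CAPS and PS, of flanks that were nearly without reads, and a depth of its own of 10.4, 11.04 and 11.2 reads in the 3 libraries.

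The TAPSβ depth also moved with the TAPSβ level. Over all pseudogenes the median ratio of body to flank depth in TAPSβ was 1.06 at a level under 20% and 0.888 at 80% or more, and at 80 to 90% identity it was 1.08 and 0.927. Among those at 98% or more identity with a TAPSβ level of 80% or more, the median ratio of body to flank depth was 0.612 in TAPSβ, 0.879 in CAPS and 0.938 in PS (n = 52), and in 41 of the 52 the TAPSβ ratio was below the PS ratio. Among those of the same identity with a level under 20% the medians were 0.990, 0.843 and 0.970 (n = 43), and 17 of the 43 were below. CpG density differed too between these classes, with a median of 4.32 CpGs per 100 bp at the low level and 2.60 at the high one. In the 524 under 80% identical the medians over all levels were 1.01 in all 3 libraries, and in TAPSβ the median was 1.04 at a level of 20 to 60%, 0.987 at 60 to 80% and 1.03 at 80% or more. In TAPSβ a methylated CpG is read as TG. The parts of read placement and of CpG density in these values were not tested.

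**Figure D5:**
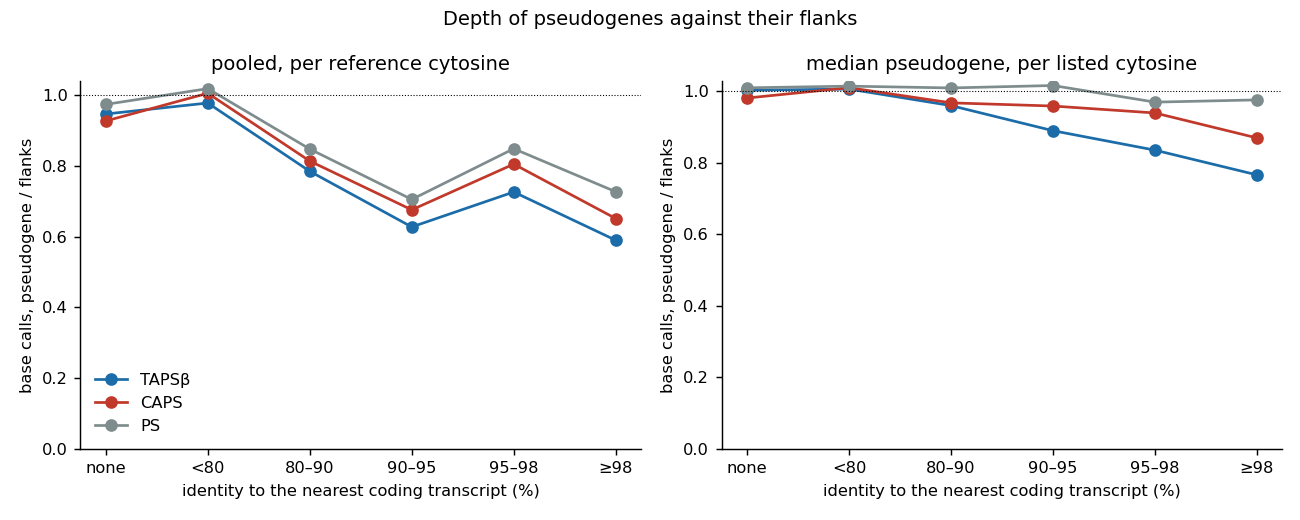
Depth of pseudogene bodies divided by that of their flanks, by identity to the nearest coding transcript, in each library, pooled per reference cytosine on the left and as the median pseudogene per listed cytosine on the right. The TAPSβ median goes from 1.01 under 80% identity to 0.766 at 98% or more, while the PS median stays between 0.969 and 1.02; pooled per reference cytosine, PS goes from 1.02 to 0.727 as well.

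About as many modified PS reads lay at few cytosines as at all the others. Cytosines read as thymine in at least 20% of 5 or more PS reads numbered 513 of 101999 in bodies (0.503%) and 574 of 203836 in flanks (0.282%). They held 52.0% of all modified PS reads of the bodies and 47.3% of those of the flanks. Without them, a choice made on the PS values themselves, the PS levels were 0.259% (0.249 to 0.268%) and 0.220% (0.214 to 0.226%). The PS test then called 3 of 2570 pseudogenes in place of 59 of 2577, with no share of all genes given for this setting. What sets these cytosines apart was not tested.

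They were gathered in few pseudogenes as well. The 10 pseudogenes with the most modified PS reads held 26.7% of them and the top 50 held 51.1%, whereas the 10 with the most CpGs held 12.9% of the CpGs. Of 3026 pseudogenes with at least 50 PS base calls, 1884 (62.3%) had no modified read. The 16 that match Asap2 lie on chromosome 12 and were singled out after their values were seen. Their median depth per reference cytosine was 1.99, 1.99 and 2.00 times that of their flanks in TAPSβ, CAPS and PS. Over all pseudogenes these medians were 0.915, 0.955 and 0.993. The 10 Asap2 matches measured in PS had a level of 2.28% (2.11 to 2.46%), and the part of depth in this level was not tested. The PS ratio of bodies to flanks without the 16 was 1.18. On chromosome 12 as a whole that ratio was 3.68, the highest of the 19 autosomes, and on chromosome 10 it was 0.492, the lowest. By identity to a coding transcript the ratio had no order: it was 0.822 (0.731 to 0.924) in pseudogenes without a match, 1.19 (1.08 to 1.32) under 80%, 1.96 (1.84 to 2.07) at 80 to 90%, 0.946 (0.874 to 1.02) at 90 to 95%, 0.991 (0.918 to 1.07) at 95 to 98% and 1.53 (1.41 to 1.65) at 98% or more.

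The highest PS level was that of Gm11623, which resembles Nono, with 11.5% (8.79 to 14.7%) beside 0.594% in the flanks, at 0.209 of the depth of its flanks. Gm6286, 98.7% identical to Rpl7a, had 5.26% (3.58 to 7.43%) beside 0.105% and a CAPS level of 6.63% beside 2.86%. Gm5682, in the major histocompatibility complex, had 4.95% (4.14 to 5.85%) beside 0.246% and a CAPS level of 9.60% beside 3.54%. Gm15302, which lies beside a defensin gene, had 4.76% (2.20 to 8.85%) beside 1.30% and was not called. In the first 3 the CAPS level was called higher together with the PS level, and in none of the 4 was the TAPSβ level called higher. CAPS also converts 5fC and 5caC, so the CAPS and PS calls need not be independent. Why these pseudogenes were read as thymine in both libraries was not tested.

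Across chromosomes the difference of TAPSβ levels between bodies and flanks ran from -20.2 points on chromosome 19, where Frat1 with its 85 CpGs lies, to 7.998 points on chromosome 13, and was above 0 on 9 of 19. The ratio of CAPS levels ran from 0.804 on chromosome 19 to 1.23 on chromosome 9 and was above 1 on 13 of 19.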

How the data were processed

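One genomic DNA of E14 cells was measured in 3 libraries, 1 each for TAPSβ, CAPS and PS. Per the submitters' processing notes and the paper's methods, the authors trimmed reads with Trim Galore 0.3.1, mapped them to mm9 with BWA 0.7.12, and removed duplicates with Picard 2.3.0 and reads of mapping quality under 10, with asTair for the calls. The authors deposited, per CpG cytosine and strand, counts of modified and unmodified reads, not normalized, and the fraction of modified reads. All values here were computed from the counts. The study's methods state that sites in artifact-prone regions or at known E14 variants were left out of later analyses, and whether this was done before deposit is not given in the sources used here.

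Pseudogenes were taken from GENCODE M1 on NCBIM37 (mm9), and the members, gene lists and tests were chosen with earlier results of these data known. A body ran from annotated start to end, introns included, and its flanks were the bases 1 to 3 kb from either end. Reads were summed over cytosines, with exact (Clopper-Pearson) 95% intervals for levels, a Newcombe interval for differences and a log-scale interval for ratios. These cover counting error only, and at a median depth of 9 to 13 reads a single cytosine is read coarsely. A two-sided Fisher exact test set body against flanks where both had at least 10 listed cytosines and 50 base calls, with Benjamini-Hochberg adjustment over all autosomal genes. Cytosines with at least 5 reads were tested by a one-sided binomial test at the study's false-positive rates. Exonic sequences were matched to coding transcripts with blastn 2.17.0 (e-value up to 1e-10, at least 100 aligned bases and 30% of the exonic length), and copies were aligned to transcripts of at least 3 exons, a choice made after the matches were seen. Pseudogenes were named as the lowest, highest or most different in level among 1459 with at least 20 reference cytosines, 150 base calls and a depth up to 2 times the median, as those at the ends of the depth ratio, or as the one with the most listed cytosines of a family. Not every pseudogene that this rule names is reported here. Any others are said to be chosen after their values were seen, apart from copies of pluripotency genes, which were all listed. Scripts used Python 3.11.15, numpy 2.4.6, scipy 1.17.1 and pandas 2.3.3 and were checked on simulated data. Alternatives were other flanks, summing, filters on reads, cytosines and members, and background rates.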

Additional observations from a re-analysis of the deposited data

How the results depend on the processing

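No pairing of libraries was possible because each method has 1 library, and bodies and flanks, or copies and genes, were compared within a library. Leaving out a library leaves no value for its method. Of 87 alternatives, 33 gave the same result, 45 moved the value and 9 reversed it. A reversal was counted from the value alone, also where the interval of the alternative included no difference. The causes were not tested. Leaving out pseudogenes that match Asap2 and keeping those with no match or under 80% identity (the low-identity set) were chosen after seeing the data.

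The TAPSβ difference of bodies and flanks reversed with the mean of cytosine levels (0.460 points) and as a median over pseudogenes (2.21). Without cytosines of high coverage it was 0.0719, with an interval (-0.0295 to 0.173) that included no difference. It was -4.61 with flank content restricted, -2.49 with annotated exons only, -4.35 over 5 kb from coding genes and -2.73 in the low-identity set. That set merges -5.94 without a match and 4.59 under 80%. The CAPS ratio was below 1 with flanks at 0 to 1 kb (0.993, 0.979 to 1.01) and in the low-identity set (0.979, 0.954 to 1.004), and both intervals included 1. It was 1.02 with flank content restricted, 1.01 without variant-like cytosines and 1.09 in exons. The PS ratio was 1.16 with flanks at 0 to 1 kb, 1.39 with the mean of cytosine levels, 1.18 without variant-like cytosines, 1.40 without high coverage, 1.02 in exons, 1.25 over 5 kb from genes, 1.18 without Asap2 matches, 1.01 in the low-identity set and 0 at the median pseudogene, which had no modified read.

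The depth ratio in TAPSβ was 0.925 with flanks at 0 to 1 kb, 0.894 with flank content restricted, 0.880 without high coverage, 0.899 over 5 kb from genes, 0.917 at the median, 0.897 without Asap2 matches and 0.969 in the low-identity set. In CAPS it was 0.955, 0.925 and 0.929 in the first 3 of these settings, 0.932 in exons, 0.959 at the median, 0.944 without Asap2 matches and 0.965 in the low-identity set. In PS it passed 1 in exons (1.002), at the median (1.004) and in the low-identity set (1.001), and was 0.971 without high coverage and 0.990 without Asap2 matches.

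Single-exon minus multi-exon TAPSβ was 13.5 points in exons, 8.10 at 1 to 3 CpGs per 100 bp and 1.77 over 5 kb from genes, and the CAPS ratio 1.13, 1.02 and 1.13, and 1.28 without variant-like cytosines. Calls moved to 195 of 2434 pseudogenes in CAPS and 31 of 2442 in PS with flanks at 0 to 1 kb. They moved to 3 of 2570 in PS without variant-like cytosines. No share of all genes is given for these settings. The CAPS cytosines called were 1215 at 10 reads or more (2.40%, beside 1.96% of all cytosines tested in that way). With both strands summed 2970 CpGs were called (5.48%, beside 5.12%), and at a rate of 0.0062 3087 cytosines (3.15%, beside 2.76%). The PS cytosines called were 37 without variant-like ones (0.0365%, beside 0.00609%).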
